A study of Homo sapiens with 6 samples.

Results

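The 10 genes described here encode 9 cathepsins, CTSA, CTSB, CTSC, CTSD, CTSH, CTSK, CTSL, CTSS and CTSZ, and the cathepsin inhibitor cystatin B, CSTB. They were taken by name, as every probe set whose platform annotation gave one of these symbols, or an older alias such as CTSL1, and no other gene. All 10 genes were found, of 19775 named genes on the array, and all 10 were among the 14828 genes kept by a filter on dim signals. Transcript levels came from 6 one-colour Affymetrix arrays of total RNA, 3 biological repeats of the CL1-0 line and 3 of the CL1-5 line. Both lines are established human lung adenocarcinoma lines derived from the parental line CL1, grown alike in RPMI medium with serum and without any drug or genetic change in the labels. CL1-0 is labelled poorly invasive and CL1-5 highly invasive, so the comparison sets 1 line against 1 other line, and invasiveness cannot be told apart from any other difference between them. The p-values reflect only how much the 3 repeats of each line varied.

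Cathepsins are proteases that are made as inactive precursors, tagged with mannose 6-phosphate in the Golgi, carried to the lysosome and activated there at acid pH. Most are cysteine proteases of the papain family, while cathepsin D is an aspartic protease and cathepsin A a serine carboxypeptidase. Besides protein turnover inside the cell, several can be secreted, and in tumours secreted cathepsins are known for breaking down the matrix around the cells. Cystatin B, also called stefin B, is a small inhibitor in the cytosol and nucleus that binds cysteine cathepsins tightly and reversibly. Transcript levels say nothing directly about processing, secretion or activity of these enzymes.

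Each gene was represented by its brightest probe set that passed the filter, unless that was of the kind whose probes may bind other transcripts (suffix x, cross-hybridising below) and another one passed. A log2 fold change is CL1-5 over CL1-0 on the scale log2(signal + 6.85), which understates the change of dim genes. A fold in the text is that value put back on the linear scale. Adjusted p-values are from limma with Benjamini-Hochberg adjustment over all genes, or over all 33777 kept probe sets where a single probe set is named, and a call is an adjusted p under 0.05. The deposited signals carry no detection call, so the 40th percentile of each array, 19.5 to 20.3 signal units, stands in for background. In bulk RNA, fewer cells with a transcript and less transcript per cell cannot be told apart. Signals of different probe sets are not compared with each other.

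All 10 genes passed the threshold, 6 higher and 4 lower in CL1-5. CTSS, CTSZ, CTSB, CTSL, CTSD and CTSA were higher, and CTSH, CTSK, CTSC and CSTB were lower. Over all genes 51.7% passed, 23.3% higher and 28.4% lower, so a call by itself was common between these lines. A call together with a change of at least 2-fold was less common, at 16.3% of all genes, and 5 of the 10 genes had one: CTSS, CTSZ, CTSB, CTSH and CTSK. The median log2 fold change of the 10 genes was 0.32, beside -0.03 for all genes, and their median size of change in either direction was 1.04, beside 0.32. The genes were chosen with earlier results of these data known. Their counts and medians beside those of all genes are therefore descriptions, here and further on, not tests. On the probe sets used for these 10 genes, no CL1-0 array overlapped a CL1-5 array. Such separation was common, as the lines did not overlap on 53.5% of all kept probe sets.

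**Figure D1:**
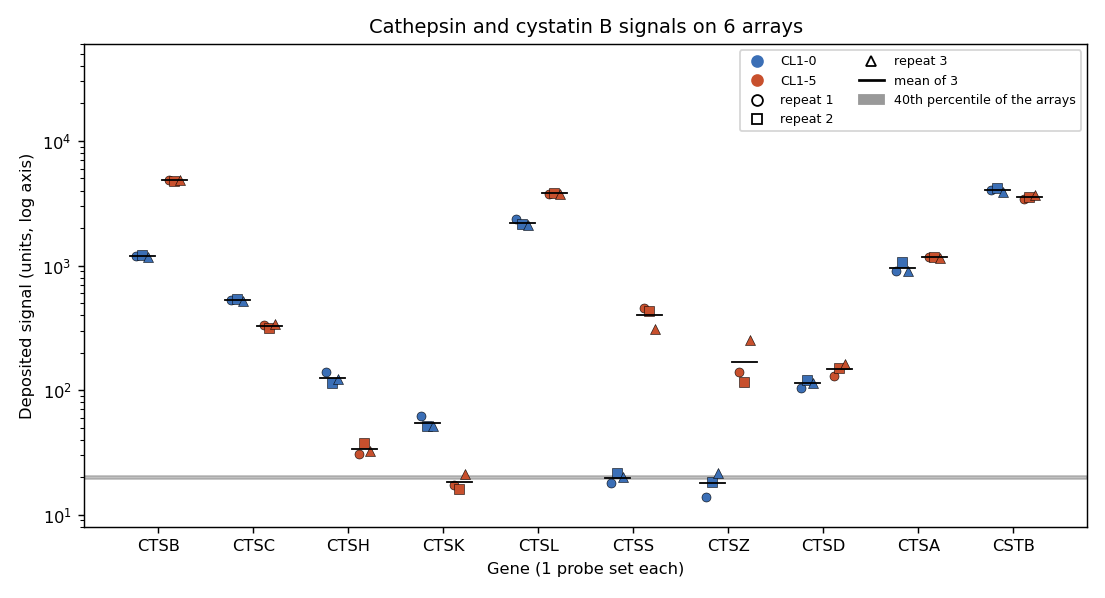
Deposited signal (log axis) of the probe set that represents each gene, on the 3 CL1-0 arrays (blue) and the 3 CL1-5 arrays (orange). Symbols give the repeat, black bars the mean of 3, and the grey band the 40th percentile of the arrays; CTSS and CTSZ lie at the band in CL1-0 and CTSK lies at it in CL1-5.

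Cathepsin S, an elastin- and matrix-degrading cysteine protease that stays active at neutral pH and trims the invariant chain in antigen presentation, had the largest change of the 10 genes. Its signals were 17.8, 21.7 and 20.1 on the CL1-0 arrays and 460, 429 and 309 on the CL1-5 arrays. The CL1-0 arrays lay at the background level, with 1 of 3 at or under the 40th percentile, and every CL1-5 array lay far above it. The log2 fold change was 3.91 with a standard error of 0.15, a 15.0-fold difference (limma adjusted p = 9.66e-08).

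CTSS has 3 probe sets, and the size of the rise differed between them. On 232617_at the signals were 15.2, 30.3 and 33.0 in CL1-0 and 72.7, 72.7 and 65.6 in CL1-5, a log2 fold change of 1.27 ± 0.21 (SE, limma adjusted p = 0.00183). The lines did not overlap there either, but the change was smaller. The third, 202901_x_at, is of the cross-hybridising kind and failed the filter, with signals of 5.86, 5.08 and 7.46 in CL1-0 and 18.8, 33.5 and 21.9 in CL1-5. Its CL1-0 arrays were all at or under the 40th percentile, and so was 1 of the 3 CL1-5 arrays. By that floor the difference is at least 1.20-fold. It was not tested in the main fit. In the fit without a filter its log2 fold change was 1.26 (limma adjusted p = 0.000315), with CL1-0 at background. With the mean of both kept probe sets in place of the brightest one, the log2 fold change of CTSS was 2.59, and with 32 as the added constant it was 3.04. CTSS passed the threshold under both.

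Cathepsin Z, also called cathepsin X, is a carboxypeptidase of the papain family that carries an integrin-binding motif in its propeptide. Its signals were 13.9, 18.3 and 21.8 in CL1-0 and 139, 116 and 253 in CL1-5. In CL1-0, 2 of 3 arrays lay at or under the 40th percentile, while the CL1-5 arrays were all well above it and spread more widely, 169 ± 73.5 (SD, n = 3). That is a 6.78-fold rise, 2.76 ± 0.26 on the log2 scale (SE, limma adjusted p = 2.51e-05).

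The other CTSZ probe set, 212562_s_at, did not show this difference. Its signals were 47.5, 36.2 and 24.5 in CL1-0 and 33.5, 37.2 and 30.2 in CL1-5, so the lines overlapped. The log2 fold change was -0.05, with a 95% interval of -0.50 to 0.40 (limma adjusted p = 0.863). These probe sets read different stretches of the transcript or different transcripts, which the annotation used here does not tell. The mean of both gave a log2 fold change of 1.36, still past the threshold, and 32 as the added constant gave 1.95.

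Cathepsin B, an abundant lysosomal cysteine protease that can cut from the chain end as well as within the chain, was higher in CL1-5 on all 5 of its probe sets. The brightest gave 1187, 1222 and 1173 signal units in CL1-0 and 4877, 4735 and 4843 in CL1-5. Repeats differed little, and the gap between the lines was many times their spread. CTSB was 4.02-fold higher, 2.01 ± 0.06 on the log2 scale (SE, limma adjusted p = 2.12e-08). On 200838_at the mean rose from 695 to 3015 and on 213274_s_at from 121 to 511, with log2 fold changes of 2.11 and 2.02. On 227961_at it was 1.34 and on 213275_x_at, a cross-hybridising kind, 1.10 ± 0.27 (SE, limma adjusted p = 0.0108). That last probe set was the most variable, with 244, 209 and 436 in CL1-0 and 535, 561 and 765 in CL1-5, repeat 3 being highest in both lines.

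Cathepsin L, a strong endopeptidase of the lysosome that also degrades matrix proteins when secreted, has 1 probe set. It gave 2349, 2147 and 2124 in CL1-0 and 3746, 3855 and 3757 in CL1-5. The lines stood apart on every array. CTSL was 1.72-fold higher, 0.78 ± 0.07 on the log2 scale (SE, limma adjusted p = 1.56e-05). The genome holds CTSL pseudogenes with much the same sequence, and the neighbouring pseudogene CTSLP8 gave 0.89 on a cross-hybridising probe set, so the share of CTSL itself in this signal is uncertain.

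Cathepsin H, an aminopeptidase of the papain family that takes part in processing surfactant protein in the lung, had the largest fall. Its only probe set gave 140, 114 and 123 in CL1-0 and 30.9, 38.0 and 32.4 in CL1-5. Every CL1-5 array was below every CL1-0 array and still above the 40th percentile. CTSH was 3.27-fold lower, with a log2 fold change of -1.71 ± 0.12 (SE, limma adjusted p = 3.23e-06).

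Cathepsin K, the main collagen-degrading protease of osteoclasts, also has 1 probe set. Its signals were 61.5, 51.3 and 51.1 in CL1-0 and 17.3, 16.1 and 21.3 in CL1-5, where 2 of 3 arrays lay at or under the 40th percentile. So CTSK was a dim transcript in CL1-0 and at the background level in CL1-5, the reverse of CTSS. CTSK was 2.45-fold lower, with a log2 fold change of -1.30 ± 0.12 (SE, limma adjusted p = 1.86e-05).

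Cathepsin C, the dipeptidyl peptidase that activates serine proteases of immune cells, was lower on the brightest probe set, 201487_at, with 527, 542 and 521 in CL1-0 and 332, 312 and 342 in CL1-5. The repeats of each line were close together. CTSC was 1.60-fold lower there, with a log2 fold change of -0.68 ± 0.08 (SE, limma adjusted p = 0.000122). On 231234_at the CL1-5 arrays were all at or under the 40th percentile, and the difference was at least 1.62-fold (limma adjusted p = 0.000894). The other two did not pass. On 225646_at the log2 fold change was -0.33 (adjusted p = 0.0828), and on 225647_s_at it was -0.63 (adjusted p = 0.0539), with 549, 463 and 318 in CL1-0 and 312, 318 and 215 in CL1-5. Repeat 3 was the lowest array of its line on 225647_s_at in both lines. With the repeat number as a block (a replicate block), both passed, with limma adjusted p of 0.00466 and 1.11e-05, and both also passed without CL1-0 replicate 3, at -0.45 and -0.84.

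Cathepsin D, the major aspartic protease of the lysosome, gave 105, 121 and 114 in CL1-0 and 130, 151 and 162 in CL1-5. The log2 fold change was 0.36 ± 0.11 (SE), 1.28-fold (limma adjusted p = 0.0252). Cathepsin A, the serine carboxypeptidase that protects beta-galactosidase and neuraminidase in the lysosome, gave 910, 1068 and 896 in CL1-0 and 1161, 1172 and 1150 in CL1-5. Its log2 fold change was 0.28 ± 0.09 (SE), 1.21-fold (limma adjusted p = 0.0246). Neither gene's lines overlapped, but the gaps were narrow, and both calls rested on single arrays. Without CL1-0 replicate 1 the adjusted p was 0.0805 for CTSD and 0.0828 for CTSA, and without CL1-5 replicate 2 it was 0.0873 and 0.0813. CTSD was also lost without CL1-5 replicate 3 (0.0749), and CTSA without CL1-0 replicate 3 (0.0559) or CL1-5 replicate 1 (0.0622). With CL1-0 replicate 1 or CL1-5 replicate 2 left out, 4 of the 10 genes were therefore higher and 3 lower, in place of 6 and 4.

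Cystatin B gave 4037, 4227 and 3874 in CL1-0 and 3397, 3576 and 3665 in CL1-5 on 201201_at. The lines did not overlap, and the log2 fold change was -0.19 ± 0.07 (SE), 1.14-fold lower (limma adjusted p = 0.0381). A second probe set, 236449_at, went the other way, with 23.0, 19.0 and 19.7 in CL1-0 and 42.3, 52.8 and 68.6 in CL1-5. It is near background in CL1-0, with 2 of 3 arrays at or under the 40th percentile, and its log2 fold change was 1.14 ± 0.16 (SE, limma adjusted p = 0.000661). The mean of both probe sets gave 0.48, the opposite direction to 201201_at, so no direction holds for CSTB across its probe sets. The call on 201201_at was also lost without CL1-0 replicate 1 (adjusted p = 0.0867), CL1-0 replicate 2 (0.147), CL1-5 replicate 1 (0.129) or CL1-5 replicate 2 (0.095).

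Over all 21 probe sets of the 10 genes, 20 passed the filter. Of these 12 were higher in CL1-5, 5 were lower and 3 did not pass the threshold, where 19.8% of all kept probe sets were higher and 24.6% lower. The lines did not overlap on 18 of the 21, 13 higher and 5 lower, and they overlapped on the other 3, beside 53.5% of all kept probe sets without overlap. CTSB had 5 of the 12 higher probe sets, and probe sets of a gene share their RNA and are not independent.

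**Figure D2:**
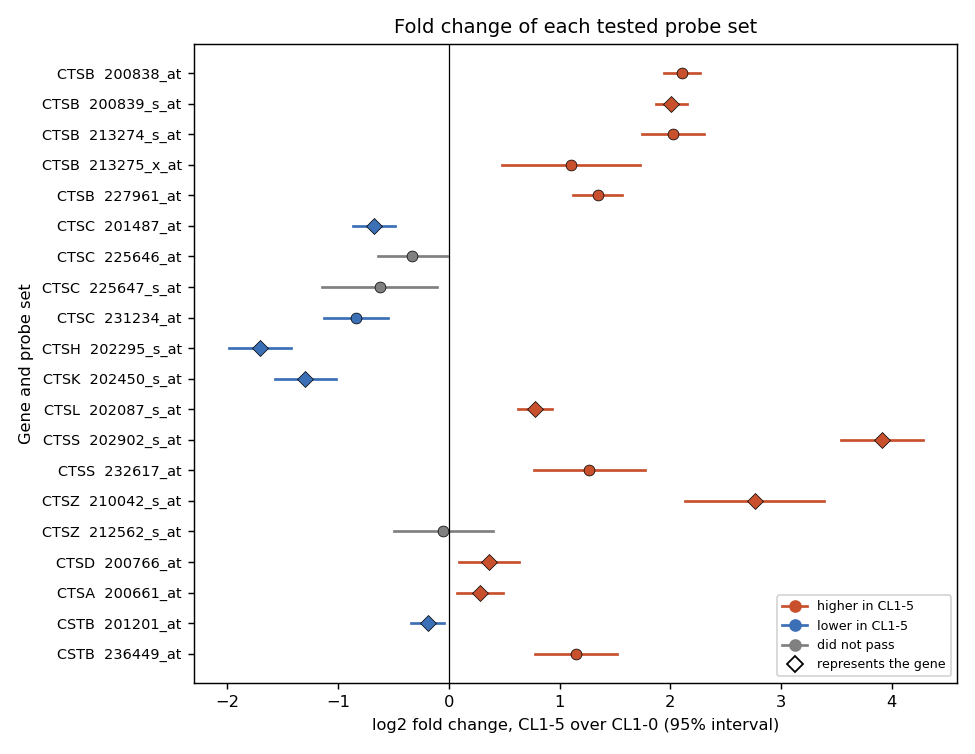
Log2 fold change of CL1-5 over CL1-0 for each of the 20 tested probe sets, with its 95% interval; diamonds mark the probe set that represents a gene. The 5 CTSB probe sets all lie to the right of 0, while the pair for CTSZ and the pair for CSTB differ within the pair.

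Compared within each repeat number, the 10 genes kept the direction of their mean difference in all 3 pairs of arrays. This had to be so, as no CL1-0 array overlapped a CL1-5 array on these probe sets. The log2 difference was 4.24, 3.93 and 3.55 for CTSS in repeats 1, 2 and 3, 2.82, 2.29 and 3.18 for CTSZ, and 2.03, 1.95 and 2.04 for CTSB. It was -1.96, -1.43 and -1.73 for CTSH and -1.50, -1.34 and -1.04 for CTSK. The smallest was CSTB, at -0.25, -0.24 and -0.08. Repeat 3 stood apart from the other repeats in both lines on a bacterial control transcript, Dap, whose signal was 5079 and 8993 there and 220 to 282 on the other 4 arrays. As the lines did not overlap on the probe sets used, direction could not differ in repeat 3 and is no check on it. What else repeat 3 changed was not tested. Array medians lay between 30.2 and 30.9 signal units. The 3′ to 5′ ratio of ACTB, a sign of RNA quality, had a mean ± SD on the log2 scale of 0.71 ± 0.40 for CL1-0 and 0.54 ± 0.32 for CL1-5 (exact two-sided permutation p = 0.5, where 0.1 is the smallest possible). Paired by repeat number, which was added after the values were seen, the ACTB ratio was lower in CL1-5 in 3 of 3 pairs, with differences of -0.22, -0.04 and -0.26, and so was that of GAPDH. Both gave p = 0.25 in an exact two-sided sign-flip test, which cannot go lower with 3 pairs. Repeat 3 had the highest log2 ratios of each line. For ACTB they were 1.17 in CL1-0 and 0.91 in CL1-5, beside 0.31 to 0.53 on the other 4 arrays. For GAPDH they were 0.25 and 0.20, beside 0.02 to 0.14. The part of RNA quality in the results was not tested.

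Cystatin B binds cysteine cathepsins, so the transcript of each of the 7 cysteine cathepsins was also set against CSTB within each array, as a difference of log2 values from the probe sets used for the genes. This ratio was added after the values had been seen. Relative to CSTB, CTSS was higher in CL1-5 by 4.10 ± 0.21 (log2, SE), CTSZ by 2.95 ± 0.35, CTSB by 2.20 ± 0.04 and CTSL by 0.97 ± 0.06. The ratio was lower in CL1-5 for the other 3, with differences of -1.52 ± 0.12 for CTSH, -1.11 ± 0.12 for CTSK and -0.49 ± 0.05 for CTSC. The lines did not overlap for any of the 7 ratios. The exact two-sided permutation p was 0.1 for each, the smallest that 3 against 3 arrays can give. The same 7 cathepsin probe sets already stood apart without CSTB, which changed by only -0.19 on the log2 scale. The ratios therefore largely repeat those fold changes, and the share of such separated ratios over all genes was not computed. The ratios use 201201_at for CSTB, and 236449_at changed in the other direction.

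**Figure D3:**
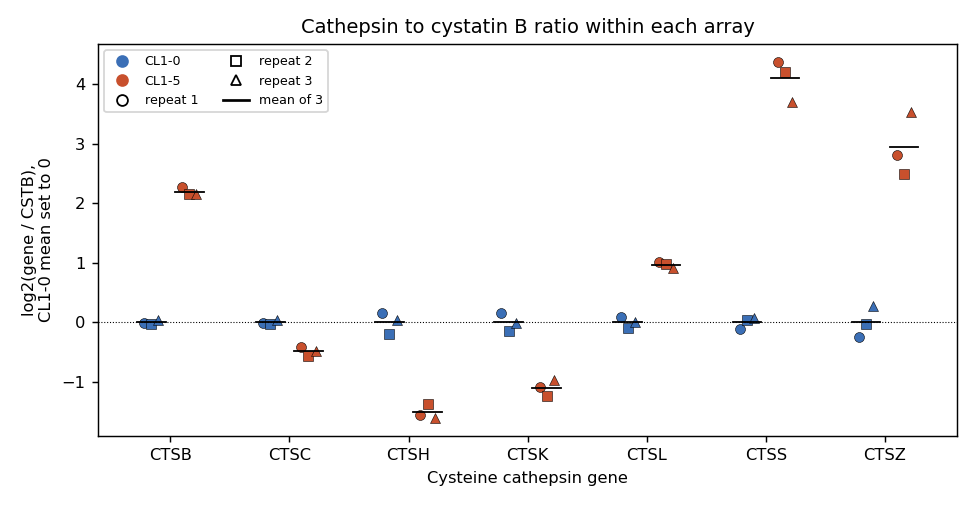
Log2 ratio of each cysteine cathepsin to CSTB within each array, with the CL1-0 mean of each gene set to 0; symbols give the repeat and black bars the mean of 3. CTSS, CTSZ, CTSB and CTSL lie above 0 on all CL1-5 arrays, and CTSC, CTSH and CTSK lie below it.

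CTSS and CTSK are neighbours on chromosome 1, with no other tested gene between them in the RefSeq order. Their transcripts differed between the lines in opposite directions. On the CTSS side, HORMAD1, a meiotic chromosome protein that tumours can switch on, was lower in CL1-5, at -5.60 ± 0.09 on the log2 scale (SE, limma adjusted p = 8.25e-10). The mean HORMAD1 signal was 661 in CL1-0 and 6.89 in CL1-5, where all 3 arrays were at or under the 40th percentile, a difference of at least 33.2-fold. The next tested gene, GOLPH3L, a Golgi phosphoprotein, had 0.15 (limma adjusted p = 0.225). On the CTSK side, ARNT, the dimer partner of hypoxia and dioxin factors, had -0.58 and the histone methyltransferase SETDB1 had -0.43, both lower. The other ARNT probe sets disagreed in size, sign and call. One was lower at -1.24, while those at -0.34 and 0.04 and the cross-hybridising one at 0.060 did not pass (limma adjusted p = 0.286, 0.941 and 0.802). Another SETDB1 probe set had -0.30 and did not pass either (limma adjusted p = 0.184). So the rise of CTSS was set between a gene that fell far more, HORMAD1, and CTSK, which fell.

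**Figure D4:**
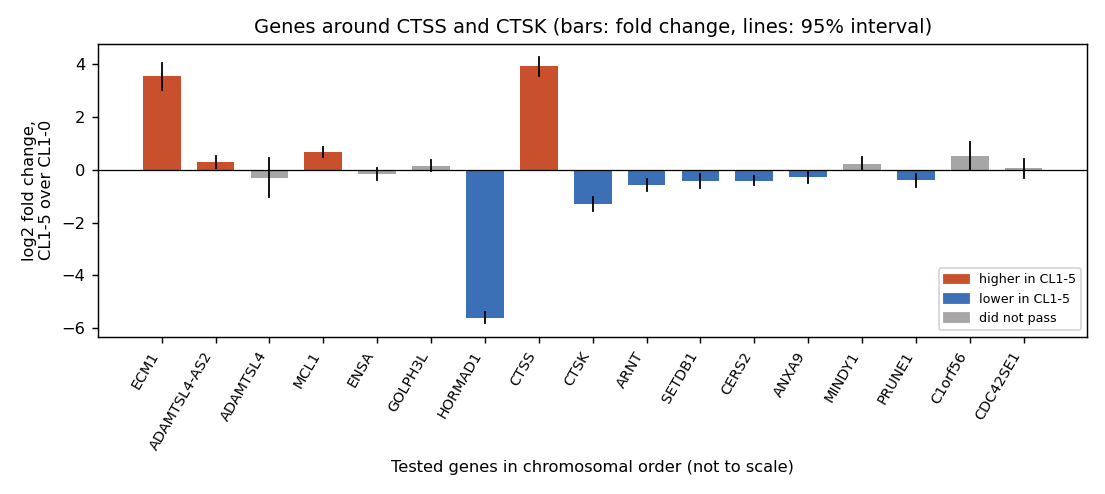
Log2 fold change of CL1-5 over CL1-0, with its 95% interval, for the tested genes on either side of CTSS and CTSK in chromosomal order (not to scale). CTSS at 3.91 stands between HORMAD1 at -5.60 and CTSK at -1.30.

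The nearest tested genes beside CTSB and CTSZ, 2 on each side, did not rise with them. Genes that were not tested were passed over in this order, so these need not be the directly adjacent genes. Next to CTSB, the lineage factor GATA4 had a log2 fold change of -0.35 (limma adjusted p = 0.304), the DNA glycosylase NEIL2 -0.27 (0.0773) and the noncoding FAM86B2-DT -0.30 (0.0534), while the uncharacterised LOC729732 was lower at -0.81 (0.00121). With the replicate block the first 3 were lower as well, with limma adjusted p of 0.0102, 0.0292 and 0.00682. In the main fit, other probe sets of GATA4 had 0.09 and 0.13 and another of FAM86B2-DT had 0.18. These had the opposite sign and did not pass (limma adjusted p = 0.458, 0.541 and 0.336). Next to CTSZ, the elongation factor subunit NELFCD was lower at -0.55, the platelet tubulin TUBB1 had -0.07 and the ATP synthase subunit ATP5F1E 0.08. The G protein subunit GNAS was lower at -2.57 on the probe set used, but had -0.08 where a brighter cross-hybridising probe set was used.

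The starts of 6 of the 10 genes, CTSA, CTSC, CTSD, CTSH, CTSL and CTSZ, were matched by symbol to RefSeq promoter sequences (GRCh38.p14), and the 250 bases before each start were searched on both strands. The letters CACGTG are the E-box that the MiT factors, such as TFEB and MITF, are known to bind at lysosomal genes. They were present before CTSA and CTSD, the serine and the aspartic cathepsin, and not in these windows of the 4 cysteine cathepsins. Of all 35116 windows of this length, 6.34% held CACGTG. CTSB, CTSK, CTSS and CSTB had no window to search. CTSA and CTSD also were the cathepsins with the smallest rises, and a link of the motif to the size of change was not tested. Their sequences are shown to place this motif, in capitals, on the strand of the gene and 5′ to 3′, for chr20:45891085-45891334 (plus strand) and chr11:1763928-1764177 (minus strand).
CTSA: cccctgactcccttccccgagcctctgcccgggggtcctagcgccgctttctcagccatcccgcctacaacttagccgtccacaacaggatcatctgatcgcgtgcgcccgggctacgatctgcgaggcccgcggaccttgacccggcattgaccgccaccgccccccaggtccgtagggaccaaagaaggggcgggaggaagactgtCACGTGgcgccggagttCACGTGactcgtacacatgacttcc
CTSD: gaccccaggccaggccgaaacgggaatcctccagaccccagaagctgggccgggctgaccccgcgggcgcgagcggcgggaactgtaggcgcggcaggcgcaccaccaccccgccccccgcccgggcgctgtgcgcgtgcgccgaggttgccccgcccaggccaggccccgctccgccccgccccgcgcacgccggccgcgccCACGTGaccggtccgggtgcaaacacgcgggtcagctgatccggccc

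The CTSD motif began 47 bases before the start. CTSA has 2, beginning 42 and 25 bases before it, and the nearer one lies within TCACGTGA, a longer form held by 0.854% of all windows. A match marks letters only, and no binding was measured.

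CTSZ and CTSH are shown because they had the largest rise and the largest fall among the 6 matched genes. Capitals mark GGGCGG, the GC box, or its reverse complement, in chr20:59007255-59007504 (minus strand) and chr15:78945047-78945296 (minus strand).
CTSZ: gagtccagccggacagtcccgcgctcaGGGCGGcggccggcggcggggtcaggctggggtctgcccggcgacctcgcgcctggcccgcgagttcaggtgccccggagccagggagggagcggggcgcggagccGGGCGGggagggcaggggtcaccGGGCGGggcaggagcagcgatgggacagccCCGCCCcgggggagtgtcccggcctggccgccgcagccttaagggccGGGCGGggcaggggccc
CTSH: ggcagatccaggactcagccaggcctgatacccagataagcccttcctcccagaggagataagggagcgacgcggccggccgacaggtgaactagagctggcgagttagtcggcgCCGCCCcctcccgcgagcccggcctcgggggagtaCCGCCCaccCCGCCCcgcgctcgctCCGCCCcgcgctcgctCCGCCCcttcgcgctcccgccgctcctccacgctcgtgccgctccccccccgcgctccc

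Both windows hold 5 GC boxes, so their count does not differ between the gene that rose and the gene that fell. All 6 matched windows hold at least 1, with 5 for CTSD, 3 for CTSL, 2 for CTSA and 1 for CTSC, beside 42.6% of all windows with any. Among 52 windows of the tagging, hydrolase, membrane and vacuolar ATPase genes listed further on, 88.5% hold a GC box and 28.8% hold CACGTG. The letters TTCNNNGAA, the GAS element of STAT factors, and AAANNGAAA, the core of the interferon response element, are in none of the 6 windows, and 6.57% and 9.2% of all windows hold them.

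The other genes of the pathway were read from 7 lists, with 95 genes, of which 80 passed the filter. Of the 80, 27 were higher, 15 were lower and 38 did not pass, with a median log2 fold change of 0.15. So 33.8% were higher and 18.8% lower, beside the 23.3% and 28.4% of all genes. With the repeat number as a block, 37 of the 80 (46.2%) were higher and 25 (31.2%) lower, beside 28.1% and 34.8% of all genes in the same fit. Among 7 other cathepsins and legumain, 3 were higher and none lower, with a median of 0.31. Cathepsin O, a little-studied papain-family protease, gave 17.5, 23.9 and 37.9 in CL1-0 and 111, 127 and 243 in CL1-5, a log2 fold change of 2.29 ± 0.30 (SE, limma adjusted p = 0.000225). Cathepsin F, another papain-family protease, was higher by 1.12, and legumain, LGMN, which cuts and activates cathepsin precursors, by 0.85. Cathepsin V, the close relative of cathepsin L, had 0.31 (adjusted p = 0.0611) and passed with the replicate block (limma adjusted p = 0.000499). Of these, LGMN and CTSV were named after their values were seen.

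Of 11 other cystatins and serpins that inhibit cathepsins, 6 passed the filter, 1 higher, 1 lower and 4 with no call, and the median was 0.10. Cystatin C, CST3, the main secreted cystatin, rose by 0.78 ± 0.11 (log2, SE), from a mean of 710 to 1216. Its 2 other probe sets had -0.07 and -0.11, and the call was lost when all were averaged. Cystatin A, CSTA, the epithelial relative of cystatin B, fell by 0.82 on the log2 scale, from 86.0 to 45.8. CST1, CST7, SERPINB3, SERPINB4 and SERPINB13 were at or under the 40th percentile on all arrays.

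Of 10 tested genes for mannose 6-phosphate tagging and sorting, 6 were higher and 1 lower, with a median of 0.24. The tagging enzyme subunits GNPTG and GNPTAB rose by 0.74 and 0.62 on the log2 scale, the call of the latter being lost without CL1-0 replicate 1 or 2. IGF2R, the large mannose 6-phosphate receptor that carries cathepsins to the lysosome, fell by 1.42 (SE 0.07, limma adjusted p = 5.77e-07), from 1993 to 739. The small receptor M6PR, named after its value was seen, rose by 0.53 (adjusted p = 0.0122). The receptors thus changed in opposite directions.

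Other lysosomal hydrolases went both ways, with 9 of 25 higher and 3 lower (median 0.13). The sulfatase ARSA rose by 1.40 and the galactosylceramidase GALC by 1.08, while the galactosidase GLA fell by 2.57 and the peptidase TPP1 by 0.50. Another ARSA probe set had 0.23 and another of GALC 0.88, and neither passed (limma adjusted p = 0.259 and 0.0633). Of 13 lysosomal membrane proteins 3 were higher and 4 lower (median -0.15). The chloride exchanger CLCN7 rose by 0.48 and the receptor SCARB2 by 0.42, while the sialic acid exporter SLC17A5 fell by 1.78 and TMEM192 by 0.67. Of 15 subunits and partners of the vacuolar ATPase, the proton pump that acidifies the lysosome, 3 were higher and 4 lower (median 0.17). ATP6V0E1 and ATP6AP2 rose by 0.36 and 0.28, but both lost the call when CL1-5 replicate 2 was left out, and ATP6AP2 overlapped between the lines. ATP6V1H fell by 0.75 and ATP6AP1 by 0.60.

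MITF, a MiT factor that drives lysosomal and melanocyte genes, was among the strongest falls in these lists, with 1286, 1228 and 1098 in CL1-0 and 158, 129 and 167 in CL1-5. Its log2 fold change was -2.94 ± 0.12 (SE, limma adjusted p = 9.78e-08), and a second probe set gave -3.21. TFE3, a relative, rose by 0.48, and TFEB, the best-known lysosomal regulator, by 0.52 (adjusted p = 0.0356), a call lost without CL1-0 replicate 1 or 2 or CL1-5 replicate 2 or 3. Adjusted over all kept probe sets, this TFEB probe set did not pass (limma adjusted p = 0.0527), nor did another at 0.24 (0.265). The other TFE3 probe sets had 0.63 and 0.34 and did not pass (0.166 and 0.142). ZKSCAN3, a repressor of lysosomal genes, fell by 1.01. TFEC was at or under the 40th percentile on all arrays.

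**Figure D5:**
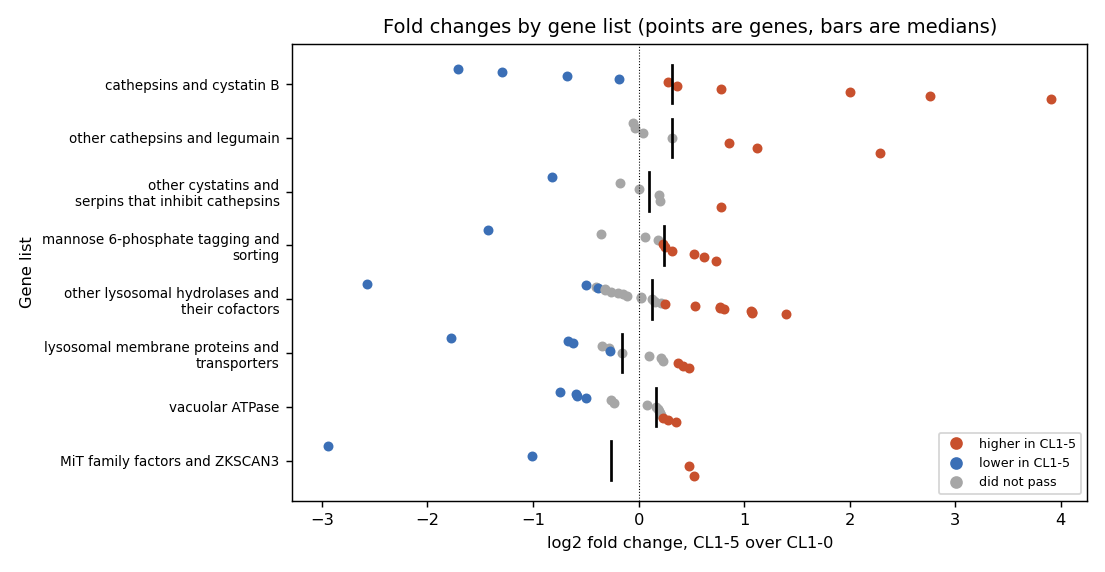
Log2 fold change of CL1-5 over CL1-0 for each tested gene of the cathepsin and cystatin B group and of the 7 other lists; points are genes, coloured by call, and black bars are list medians. CTSS is the point farthest to the right and MITF the point farthest to the left.

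Cathepsins S and K are typical of macrophages and osteoclasts, so markers of those cells were read beside them. Of 10 macrophage and leukocyte markers, 6 were at or under the 40th percentile on all arrays, including the leukocyte antigen PTPRC, CD14, CD163 and LYZ. Their summed signal was 190 to 221 in CL1-0 and 205 to 222 in CL1-5, and 1 was called, FCER1G, higher from a mean of 16.1 to 27.1. For 8 fibroblast and osteoclast markers the sum was 168 to 176 in CL1-0 and 377 to 502 in CL1-5. That difference lay mainly in OSCAR, an osteoclast receptor, which gave 21.9, 15.9 and 11.5 in CL1-0 and 245, 322 and 359 in CL1-5, while LUM and PDGFRA were at or under the 40th percentile on all arrays. The other osteoclast marker, CALCR, was at 20.4 and 18.8, and OSCAR went opposite to CTSK. The part of other cells in the cathepsin signals was not tested further.

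The label of lung adenocarcinoma was read from 10 markers, whose sum was 537 to 580 in CL1-0 and 4819 to 5642 in CL1-5. The epithelial keratins KRT18 and KRT8 were higher in CL1-5, by 6.31 and 3.32 on the log2 scale, both on cross-hybridising probe sets. The difference in the sum lay mainly in these keratins. Their means in CL1-0 and CL1-5 were 46.5 and 4222 for KRT18 and 49.4 and 555 for KRT8. KRT7, at 85.0 and 96.0, and MUC1, at 117 and 120, did not pass. The lineage factor NKX2-1 was near the 40th percentile in both lines, at 26.9 in CL1-0 and 25.0 in CL1-5. The aspartic protease napsin A, NAPSA, was at 47.9 and 38.4, not a call, but lower with the replicate block (limma adjusted p = 0.038). The surfactant genes SFTPB, at 36.5 and 38.0, and SFTPC, at 99.0 and 92.5, overlapped between the lines and were above the 40th percentile on all arrays. The epithelial antigen EPCAM was at least 1.46-fold lower in CL1-5. SFTPD was at or under the 40th percentile on all arrays.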

How the data were processed

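Total RNA of 3 CL1-0 and 3 CL1-5 repeats was measured on 6 one-colour arrays. The deposited values are probe set intensity on a linear scale. The 1 tool named, per the submitters' notes on processing, is MAS5, with no version, and the sources used here state neither detection calls nor any later scaling. Between any 2 of the 6 arrays, 82 to 179 probe sets had exactly equal values, and whether the values are plain MAS5 output is unknown.

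Gene names came from the platform's annotation: among the 54675 there were 41097 with 1 gene symbol, 1801 with several, 11715 with no symbol and 62 controls, and RefSeq gave current symbols and gene order for 41043 through their gene identifiers. The filter asked for a signal above the array's 40th percentile on 3 or more of the 6 arrays. The fit used log2(signal + 6.85), a constant equal to the 10th percentile over the table, with limma 3.58.1 in R 4.3.3 (lmFit, then eBayes with a trend), Benjamini-Hochberg adjustment and a threshold of 0.05. Steps were tested on simulated data. A fold is a bound against the 40th percentile if none of a line's 3 arrays exceeded it. The number of arrays limits the precision.

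The members and lists were chosen with earlier results of these data known. Named genes were every member, up to 2 called genes with the largest rise and 2 with the largest fall in each list, the tested neighbours of CTSS, CTSK and members changed at least 4-fold, and called or defining markers. Listed genes without a probe set of their own are not analysed here. Same-numbered arrays deviated together from their line means, with correlations of 0.48, 0.293 and 0.656 over probe sets, which meets the rule for pairing used here. The values given are nonetheless from an unpaired fit and unpaired permutation tests, and the fit with the repeat number as a block is an alternative, given where it changes a call. The ratio to CSTB, the paired RNA quality test and the fits of repeats 1 and 2 alone were added after the data were seen. The other alternatives changed the constant, filter, scaling, variance trend, array weights, threshold, probe set rule or arrays used.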

Additional observations from a re-analysis of the deposited data

How the results depend on the processing

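Under 21 alternative settings, the direction and call of CTSB, CTSC, CTSH, CTSK, CTSL, CTSS and CTSZ held wherever they had a value (CTSK failed the 60th percentile filter and has 20), with highest adjusted p of 1.04e-06, 0.00136, 3.13e-05, 0.000212, 0.000256, 2.86e-06 and 0.000299. Their log2 fold changes ranged over 1.72 to 2.02, -0.76 to -0.62, -1.87 to -1.26, -1.54 to -0.79, 0.75 to 0.82, 2.59 to 4.25 and 1.36 to 3.10. Of 209 member values under alternatives, 190 kept direction and call, 18 lost the call, all of them for CTSD, CTSA or CSTB, and 1 reversed, CSTB at 0.48 with the mean of kept probe sets. The CSTB call further failed without a filter (adjusted p = 0.0567), with quantile scaling (0.0507) or no variance trend (0.091), that of CTSD in repeats 1 and 2 alone (0.0628), and those of all 3 at a threshold of 0.01. The replicate block left 6 members higher and 4 lower. Among the other named genes read under the alternatives, it changed only the calls given in the report. M6PR, DAPK1, CTSLP8, TMEM135, CHORDC1 and TMED3 were not read under the alternatives. The count of list genes lower moved from 15 to 26 with array weights, 25 with the replicate block, 25 with repeat 3 as a block and 26 in repeats 1 and 2 alone, and of those higher from 27 to 16 at the threshold of 0.01. ARNT, beside CTSK, lost its call at 0.060 with the suffix x allowed. Fits without an array kept the probe sets and filter of all 6. The median of all genes moved from -0.03 to -0.04 with quantile scaling. Low signal limits CTSS and CTSZ in CL1-0 and CTSK in CL1-5.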

Other observations

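Beside cathepsins A and L, other genes changed more than these cathepsins did. PLTP, the phospholipid transfer protein of plasma lipoproteins and the neighbour of CTSA, fell by 3.57 on the log2 scale (SE 0.08, limma adjusted p = 3.74e-09), from a mean of 1187 to 93.5. DAPK1, the death-associated protein kinase beside CTSL, fell by 2.99 on the log2 scale, from 480 to 54.7. Both were named after their values were seen. Among the nearest tested genes of CTSC and CTSH there were changes both ways, all on the log2 scale. TMEM135 fell by 0.52 and CHORDC1 by 0.98 beside CTSC, and TMED3 rose by 0.61 beside CTSH.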
